A study of Mus musculus with 20 samples.

Results

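The D-type cyclins (Ccnd1, Ccnd2, Ccnd3), the E-type cyclins (Ccne1, Ccne2), the kinase Cdk4, the pocket proteins Rb1 and Rbl1, the transcription factor E2f1 and Myc were followed in mouse BV-2 microglia, a microglial cell line established from brain cultures of juvenile C57BL/6 mice. These 10 genes are the rows whose Ensembl identifiers map to these symbols, out of 55487 rows in the count table, and all 10 passed the filter on low counts that left 12799 genes for testing. RNA-Seq was performed on 20 wild-type BV-2 cultures in 4 groups of 5, namely young (control, low passage) and aged cells, with or without a 6-hour exposure to bacterial lipopolysaccharide (LPS, 100 ng/ml). Aged cells were obtained by cultivating the line for an extended time with no other challenge. The authors froze these cells, used thawed aliquots and describe the replicates as independent. Whether the 5 aged cultures came from separate long-term cultivations is not stated. If they did not, a change of 1 long-term culture and the aged state cannot be told apart. Each replicate number 1 to 5 is also the batch number in the labels, so that every batch held 1 culture of each group. The line is a single immortalised one, derived with a retrovirus that carries v-raf and v-myc. Transcripts of these viral genes were not analysed here. The values of Myc are those of the row of the mouse gene, and whether reads of v-myc were counted there was not tested.

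Passage from G1 into S phase is controlled by these genes in sequence. Mitogens and Myc induce D-type cyclins, which activate CDK4 and CDK6. These kinases phosphorylate the retinoblastoma protein and its relatives, which otherwise hold E2F factors in check. Released E2F1 drives the genes of DNA replication and also those of cyclin E, which with CDK2 completes the phosphorylation of the pocket proteins. In cultured macrophages, bacterial lipopolysaccharide is known to slow proliferation while it induces inflammatory genes.

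Each library held between 11371508 and 16829292 reads assigned to genes. A list of 10 microglia and macrophage genes summed to between 2075 and 4030 CPM (counts scaled to a common library size by TMM) in every library, with Csf1r at 562 to 998 CPM and Cd68 at 753 to 1409 CPM, whereas the homeostatic markers Cx3cr1 and P2ry12 did not exceed 1.73 and 1.87 CPM. Lists of 5 genes each for neurons, astrocytes, oligodendrocytes and fibroblasts summed to at most 0.414, 1.55, 1.78 and 1.26 CPM. The 4 genes used to check the treatment (Tnf, Il6, Nos2 and Cxcl10) were all higher after LPS at both ages. All 4 were lower in aged than in young cells under LPS (median log2 fold change −1.67), and 3 of the 4 were lower in untreated aged cells. Their median log2 response to LPS was 7.66 in young and 8.99 in aged cells. The difference of responses (aged minus young) was above 0 for 3 and below 0 for 1 (median 0.95), and 0 of the 4 passed. The part of these differences in the results that follow was not tested. Of the 4 proliferation genes examined (Mki67, Top2a, Ccnb1 and Plk1), Mki67 fell with LPS by 0.71 on the log2 scale in young cells (adjusted p = 1.56e-04, edgeR) and by 0.34 in aged cells (adjusted p = 0.0448), and the other 3 did not pass the test. In bulk RNA, a lower share of cells in S phase and less of a transcript per cell cannot be told apart.

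Promoter sequences from RefSeq (GRCm38.p6, 250 bases before to 50 after a transcript start) were matched for 5 of the 10 genes, Ccnd3, Ccne1, Cdk4, Rbl1 and E2f1, in 6 windows. The 2 windows that held a searched motif, those of Cdk4 and Rbl1, are shown. Capitals mark the motif matches, and both sequences run 5′ to 3′ on the strand of the gene, at chr10:127063285-127063584 (plus strand) and chr2:157204485-157204784 (minus strand).
Cdk4: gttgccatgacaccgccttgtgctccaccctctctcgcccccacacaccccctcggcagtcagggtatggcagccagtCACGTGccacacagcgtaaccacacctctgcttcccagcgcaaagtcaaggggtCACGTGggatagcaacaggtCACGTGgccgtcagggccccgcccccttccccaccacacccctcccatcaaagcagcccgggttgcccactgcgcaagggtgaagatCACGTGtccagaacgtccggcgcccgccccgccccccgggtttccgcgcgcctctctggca
Rbl1: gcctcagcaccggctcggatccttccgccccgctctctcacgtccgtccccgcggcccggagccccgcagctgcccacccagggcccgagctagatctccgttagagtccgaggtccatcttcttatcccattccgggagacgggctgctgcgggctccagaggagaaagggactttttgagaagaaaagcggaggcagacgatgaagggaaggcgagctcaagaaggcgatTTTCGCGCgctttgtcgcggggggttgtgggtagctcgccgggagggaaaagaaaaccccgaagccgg
The Cdk4 window held 4 copies of CACGTG, the E-box word that Myc with Max can bind, starting 172, 118, 98 and 11 bases upstream of the start. Of 32817 promoter windows of the same length, 7.15% held at least 1 copy. The Rbl1 window held 1 of the 4 E2F words searched on both strands (TTTCCCGC, TTTGGCGC, TTTCGCGC and TTTGCCGC), TTTCGCGC at 18 to 11 bases upstream, and 2.26% of all windows held any of them. The other 4 windows held neither motif, and none of the 6 held the kappaB motif found in 4.50% of windows. The genes of these other windows, Ccnd3, Ccne1 and E2f1, fell with LPS as Rbl1 did, as described below. A link between the motifs and the responses was not tested. The E2f1 window (chr2:154569377-154569676, minus strand) lay inside the gene, whose 5′ end is at 154569892. The bases upstream of that end were not searched. These matches are descriptions of the letters in 1 window per start.

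Levels per kilobase of exon ordered the genes similarly in untreated young and aged cells. Cdk4 was the highest of the 10 genes in every group, at 110 ± 4.28 CPM per kilobase (SD, n = 5) in young untreated, 114 ± 8.35 in aged untreated, 111 ± 5.61 in young LPS and 123 ± 6.12 in aged LPS cultures. In untreated young cells E2f1 (35.0 ± 2.59) and Ccnd1 (31.1 ± 4.46) came next, and their libraries overlapped. Ccne1 (20.5 ± 2.44) and Ccnd2 (15.7 ± 1.63) followed and overlapped with each other. Myc stood last of the 10, with 1.31 ± 0.175 CPM per kilobase in young and 1.11 ± 0.124 in aged untreated cells, apart from the libraries of Rb1 above it. Under LPS the last place passed to Rb1, at 2.06 ± 0.234 CPM per kilobase in young and 2.25 ± 0.334 in aged cells. Myc stood at 3.70 ± 0.433 and 3.21 ± 0.432, above all libraries of Rb1 in young cells and overlapping them in aged cells. Among the D-type cyclins Ccnd1 made up 54.3% ± 2.85 (SD, n = 5) of the summed level per kilobase in young untreated and 50.0% ± 1.79 in aged untreated cells. The share of Ccnd2 was 27.6% ± 1.65 in young and 34.4% ± 0.597 in aged untreated cells, and these shares did not overlap. Ccne1 held 69.4% to 77.6% of the E-type level as a group mean, with the larger shares in untreated cells.

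**Figure D1:**
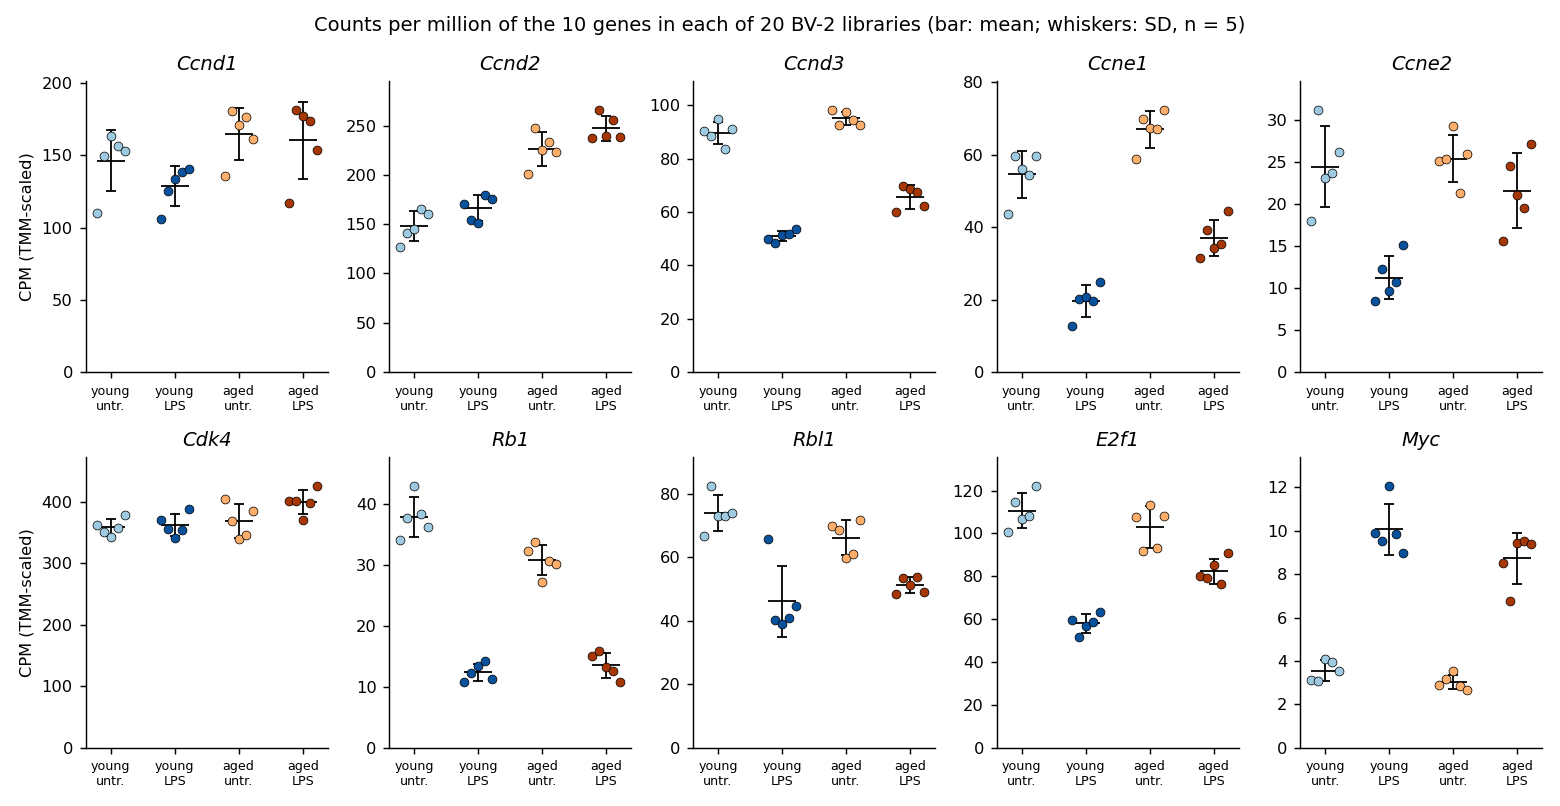
Levels in CPM (scaled by TMM, on axes that start at 0) of the 10 genes in each of the 20 libraries, by group, with points ordered by batch from left to right, horizontal bars for means and whiskers for SD (n = 5). Ccnd3, Ccne1, Rb1, Rbl1 and E2f1 were lower in all 5 LPS libraries than in all 5 untreated libraries of the same age, Rbl1 only narrowly in young cells. Myc was higher in all LPS libraries, and Ccnd2 was higher in all aged than in all young libraries.

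To find whether the G1 genes differed between the ages without LPS, untreated aged cultures were compared with untreated young ones. Of the 10 genes 2 passed the test, Ccnd2 being higher and Rb1 lower in aged cells, where 11.5% of all tested genes passed (3.71% higher and 7.81% lower). At an unadjusted p below 0.05 there were 3. The median log2 fold change of the 10 genes was 0.05, beside −0.01 over all genes. With the batch as a block 4 of the 10 passed, Ccnd1 and Ccne1 being added.

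Ccnd2 (chr6:127125162-127152193, minus strand, GRCm38), the D-type cyclin that is typical of haematopoietic cells among others, carried the clearest difference with age. Its levels were 127, 141, 146, 166 and 160 CPM in the young untreated cultures of batches 1 to 5. In the aged untreated cultures they were 201, 248, 226, 234 and 223 CPM. Every aged library lay above every young one, and 10.4% of all genes had no overlap between these groups. The difference was 0.61 ± 0.07 (log2 fold change ± SE), or 1.53-fold, with an adjusted p of 3.76e-06 by edgeR's quasi-likelihood test. Under LPS the same contrast gave 0.57 ± 0.07 (adjusted p = 2.51e-06), with 151 to 180 CPM in young and 237 to 266 CPM in aged cultures and again no overlap. The difference was positive in 5 of 5 batches in both states, and its call held in every one of the 19 alternatives run for each of these contrasts.

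Rb1 (chr14:73183673-73325822, minus strand), which encodes the retinoblastoma protein, had 34.1, 37.7, 43.0, 38.4 and 36.1 CPM in young untreated and 32.3, 33.8, 27.2, 30.6 and 30.2 CPM in aged untreated cultures. All aged values were below all young ones, although by a small margin. It was lower by 0.30 ± 0.09 on the log2 scale (adjusted p = 0.0307). This call was near the threshold. The adjusted p was above 0.05 without young untreated replicate 2, 3 or 4 or without aged untreated replicate 3, 4 or 5 (largest 0.105). It was also above 0.05 with library sizes alone (0.0528). With single untreated libraries left out the value stayed between −0.33 and −0.25. Rb1 shares exonic sequence with Rcbtb2 (8.11% of its exonic bases) and Lpar6 (6.78%) on the opposite strand, and both were also lower in aged cells, by 0.59 (adjusted p = 3.00e-04) and 0.58 (adjusted p = 0.0174). The strand setting of the counting was not stated, so reads of the 3 genes may have been shared.

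The other 8 genes did not pass the adjusted threshold in this fit, Ccne1 having an unadjusted p of 0.0166. Ccne1 stood at 43.7, 59.6, 55.9, 54.3 and 59.5 CPM in young and 58.8, 69.7, 67.3, 67.0 and 72.2 CPM in aged untreated cultures, a difference of 0.29 ± 0.11 (adjusted p = 0.0969). Batch 1 held the lowest value of Ccne1 in all 4 groups. With the batch as a block the difference was 0.30 (adjusted p = 0.00319), and it was positive in 5 of 5 batches. Ccnd1, cyclin D1, had 110, 150, 163, 156 and 153 CPM in young and 136, 180, 171, 177 and 162 CPM in aged untreated cultures. Here too batch 1 was lowest in all 4 groups. Its difference of 0.17 ± 0.11 had an adjusted p of 0.362, and 0.0208 with the block. E2f1 (−0.10 ± 0.07, adjusted p = 0.376), Rbl1 (−0.16 ± 0.10, adjusted p = 0.346), Myc (−0.23 ± 0.13, adjusted p = 0.294), Ccnd3 (0.08 ± 0.05, adjusted p = 0.286), Ccne2 (0.06 ± 0.15, adjusted p = 0.863) and Cdk4 (0.04 ± 0.05, adjusted p = 0.677) did not pass in either fit. With the 2 untreated groups fitted alone Ccne1 also passed (adjusted p = 0.0195).

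The response to LPS was then compared within each age. In young cells 8 of the 10 genes passed, 2 higher (Myc and Ccnd2) and 6 lower (Ccnd3, Ccne1, Ccne2, Rb1, Rbl1 and E2f1), where 64.6% of all genes passed (31.2% higher and 33.5% lower). In aged cells 6 passed, Myc being higher and Ccnd3, Ccne1, Rb1, Rbl1 and E2f1 lower, where 54.4% of all genes passed (27.5% higher and 26.9% lower). The median log2 fold change of the 10 genes was −0.75 in young and −0.28 in aged cells, beside −0.01 and 0.00 over all genes. Treated and untreated libraries did not overlap for 7 of the 10 genes in young cells (49.1% of all genes) and for 6 in aged cells (40.1% of all genes). With library sizes alone in place of TMM factors, the median of all genes moved to −0.23 in young and −0.16 in aged cells, and the share of calls that were higher fell from 48.2% to 27.3% and from 50.6% to 28.4%. On that scale 1 of 9 called members was higher in young cells and 1 of 7 in aged cells. TMM factors were 0.891 to 0.931 in young LPS, 0.952 to 0.973 in aged LPS and 1.04 to 1.08 in untreated libraries.

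**Figure D2:**
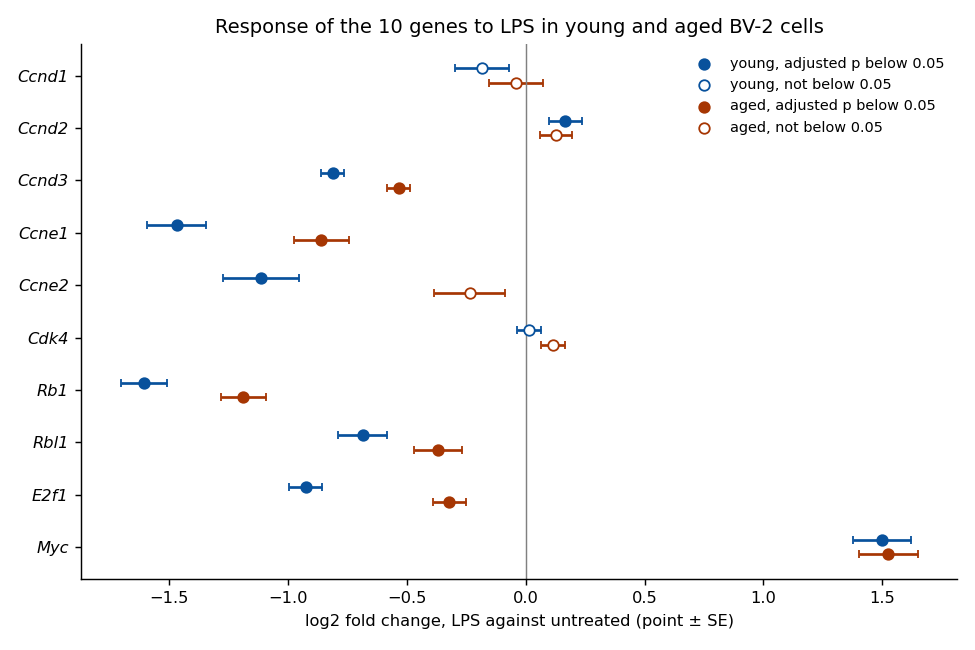
Log2 fold change of LPS-treated against untreated cultures for the 10 genes, young in blue and aged in brown, with bars for the SE of the edgeR fit and filled points for an adjusted p below 0.05. Ccnd1, Ccnd3, Ccne1, Ccne2, Rb1, Rbl1 and E2f1 lay further below 0 in young than in aged cells. The difference of responses passed only for Ccnd3, Ccne1, Ccne2 and E2f1. The points of Myc nearly coincided at 1.5 and 1.53.

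Myc (chr15:61985391-61990374, plus strand), the transcription factor that promotes growth and entry into the cell cycle, was the only one of the 10 to rise strongly. Untreated young cultures had 3.10, 3.07, 4.11, 3.96 and 3.53 CPM and LPS-treated ones 9.88, 9.54, 12.1, 9.85 and 8.99 CPM. Untreated aged cultures had 2.91, 3.16, 3.54, 2.86 and 2.66 CPM and LPS-treated ones 8.50, 6.76, 9.45, 9.52 and 9.40 CPM. No LPS library overlapped an untreated one at either age. Behind these levels stood 40 to 68 reads per untreated and 82 to 175 per LPS-treated library. The rise was 1.5 ± 0.12 in young (2.83-fold, adjusted p = 2.58e-10) and 1.53 ± 0.12 in aged cells (2.88-fold, adjusted p = 5.06e-10). The responses of both ages differed by 0.03 ± 0.17 (adjusted p = 0.970), with a 95% interval (normal, from the SE) of −0.31 to 0.36. Aged cells had somewhat less Myc under LPS, by 0.21 on the log2 scale (−0.21 ± 0.11), a difference that did not pass the test (adjusted p = 0.186).

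Among the D-type cyclins Ccnd3 fell with LPS at both ages. Ccnd3 (chr17:47505051-47599691, plus strand), the D-type cyclin associated with lymphoid and differentiating cells, had 90.2, 88.5, 95.1, 83.6 and 91.1 CPM in young untreated and 50.1, 48.3, 51.2, 51.8 and 53.8 CPM in young LPS cultures. In aged cells the values were 98.2, 92.8, 97.4, 94.4 and 92.7 CPM without and 59.9, 69.9, 68.8, 67.5 and 62.1 CPM with LPS. All treated libraries were below all untreated ones, and all aged LPS libraries were above all young LPS libraries. The fall was 0.81 on the log2 scale in young (−0.81 ± 0.05, 1.76-fold, adjusted p = 2.08e-12) and 0.54 in aged cells (−0.54 ± 0.05, 1.45-fold, adjusted p = 3.72e-09). Its partner on the opposite strand, Bysl, which overlaps 4.11% of the exonic bases of Ccnd3, rose with LPS by 0.53 in young and 0.43 in aged cells, in the direction opposite to Ccnd3.

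Ccnd1 (chr7:144929931-144939925, minus strand) had 106, 125, 134, 138 and 140 CPM in young LPS and 117, 181, 177, 174 and 153 CPM in aged LPS cultures. It was lower with LPS in 5 of 5 batches of young cells, by 0.18 on the log2 scale (−0.18 ± 0.11), which did not pass the test (adjusted p = 0.164) but did with the block (adjusted p = 0.00482). The young untreated culture of batch 1, at 110 CPM, lay apart from the other 4 (150 to 163 CPM), and without it the fall was 0.27 (adjusted p = 0.0299). In aged cells the difference was −0.04 ± 0.11 (adjusted p = 0.790). Ccnd2 had 170, 154, 151, 180 and 176 CPM in young LPS and 237, 266, 239, 256 and 238 CPM in aged LPS cultures, 0.17 ± 0.07 (adjusted p = 0.0384) and 0.13 ± 0.07 (adjusted p = 0.120) above the untreated ones. The call in young cells ended in 10 of 19 alternatives, among them library sizes alone, where the value was −0.05, no filter on low counts (adjusted p = 0.101), and the removal of young untreated replicate 1, 2 or 3 or young LPS replicate 1, 4 or 5 (adjusted p 0.0662 to 0.131). In aged cells, too, the value was negative with library sizes alone (−0.03). LTO1 overlaps 23.4% of the exonic bases of Ccnd1 on the opposite strand and passed the test in no contrast (smallest adjusted p = 0.091).

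Cdk4 (chr10:127063534-127067920, plus strand), the kinase partner of the D-type cyclins, stayed between 339 and 426 CPM in all 20 libraries. Its LPS response was 0.01 ± 0.05 in young cells (adjusted p = 0.828, 95% normal interval −0.09 to 0.12) and 0.11 ± 0.05 in aged cells (adjusted p = 0.0667, and 0.00684 with the block). With library sizes alone the value in young cells was −0.21 (adjusted p = 0.00137), close to the shift of −0.23 in the median of all genes, and in aged cells it was −0.05. Cdk4 had the smallest SD of log2 CPM among the 10 genes over the 20 libraries, 0.0957, against 0.782 for Myc. Tspan31, which overlaps 19.7% of its exonic bases on the opposite strand, rose with LPS by 0.27 in young (adjusted p = 0.00321) and 0.24 in aged cells (adjusted p = 0.0105).

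The E-type cyclins fell with LPS in young cells. Ccne1 (chr7:38097984-38107534, minus strand) had 12.6, 20.2, 20.6, 19.6 and 24.8 CPM in young LPS and 31.4, 39.3, 34.3, 35.3 and 44.3 CPM in aged LPS cultures, all below the untreated libraries of the same age. The fall was 1.47 on the log2 scale in young (−1.47 ± 0.12, 2.77-fold, adjusted p = 4.83e-10) and 0.86 in aged cells (−0.86 ± 0.12, 1.82-fold, adjusted p = 1.53e-06). Ccne2 (chr4:11191351-11204779, plus strand) had 18.0, 31.2, 23.1, 23.7 and 26.2 CPM in young untreated and 8.50, 12.3, 9.65, 10.7 and 15.1 CPM in young LPS cultures, with no overlap. It fell by 1.11 (−1.11 ± 0.16, 2.16-fold, adjusted p = 2.15e-06). In aged cells Ccne2 had 25.2, 25.4, 29.3, 21.3 and 26.0 CPM without and 15.7, 24.6, 21.1, 19.6 and 27.1 CPM with LPS. These groups overlapped, and the difference of −0.24 ± 0.15 did not pass the test (adjusted p = 0.192), although it did with the block (−0.26, adjusted p = 0.0453). Ints8, which overlaps 17.4% of the exonic bases of Ccne2 on the opposite strand, rose with LPS by 0.40 in young cells (adjusted p = 2.00e-05) and by 0.20 in aged cells (adjusted p = 0.0161).

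The pocket protein genes and E2f1 fell at both ages. Rb1 dropped to 10.8, 12.3, 13.4, 14.2 and 11.4 CPM in young LPS and 15.0, 15.9, 13.2, 12.5 and 10.9 CPM in aged LPS cultures, far from the untreated values given above. This was the strongest fall of the 10 genes, by 1.61 on the log2 scale in young (−1.61 ± 0.10, 3.04-fold, adjusted p = 1.45e-12) and 1.19 in aged cells (−1.19 ± 0.10, 2.28-fold, adjusted p = 4.18e-10). The overlapping Rcbtb2 and Lpar6 also fell with LPS, by 0.78 and 0.87 in young and by 0.33 and 0.43 in aged cells. Their part in the counts of Rb1 was not tested.

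Rbl1 (chr2:157145893-157204534, minus strand), which encodes the related p107, had 66.6, 82.6, 73.0, 73.1 and 74.2 CPM in young untreated and 65.9, 40.3, 39.1, 40.9 and 44.6 CPM in young LPS cultures. The LPS-treated culture of batch 1 thus stood near the untreated ones, while the other 4 lay well below. Aged cultures had 69.8, 68.7, 59.9, 61.0 and 71.9 CPM without and 48.6, 53.4, 51.3, 54.0 and 49.0 CPM with LPS. The fall was 0.69 in young (−0.69 ± 0.10, adjusted p = 4.53e-06) and 0.37 in aged cells (−0.37 ± 0.10, adjusted p = 0.00427). Without young LPS replicate 1 the fall in young cells was 0.84.

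E2f1 (chr2:154559407-154569892, minus strand), the activating E2F factor, had 101, 115, 107, 108 and 122 CPM in young untreated and 59.8, 51.5, 57.0, 58.8 and 63.5 CPM in young LPS cultures. In aged cells it had 108, 91.9, 114, 93.3 and 108 CPM without and 80.1, 79.2, 85.5, 76.2 and 90.7 CPM with LPS. Treated and untreated libraries did not overlap at either age, but the gap was narrow in aged cells. The fall was 0.93 in young (−0.93 ± 0.07, 1.90-fold, adjusted p = 9.11e-11) and 0.32 in aged cells (−0.32 ± 0.07, 1.25-fold, adjusted p = 4.28e-04).

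Aged and young cells were next compared under LPS, and the difference between their LPS responses was tested as an interaction. These contrasts share libraries with the preceding ones and are not separate evidence. Under LPS 7 of the 10 genes were higher in aged cells and 0 lower by edgeR, where 29% of all genes passed (14% higher and 15% lower), and 7 had an unadjusted p below 0.05. With library sizes alone the share of all calls that were higher rose from 48.3% to 70.1%, and the members called were the same 7. The interaction passed for 4 of the 10 genes, Ccnd3, Ccne1, Ccne2 and E2f1, where 6.39% of all genes passed (4.12% higher and 2.27% lower, a share of higher calls of 64.4% that became 81.3% with library sizes alone). All 4 had fallen with LPS in young cells and were less lowered in aged cells. The median of the 10 genes was 0.34 for aged against young cells under LPS and 0.30 for the interaction, beside 0.01 and 0.02 over all genes.

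Among these, E2f1 was the steadiest. Under LPS it was 1.42-fold higher in aged cells (0.50 ± 0.07, adjusted p = 1.43e-05), and every aged LPS library was above every young LPS library. These groups had no overlap, in either direction, for 14.8% of all genes. The LPS responses differed by 0.60 ± 0.10 (adjusted p = 7.42e-04), positive in 5 of 5 batches with a range of 0.33 to 0.94 within batches. The call held in all 28 alternatives, with adjusted p up to 0.00219.

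Ccne1 was 1.87-fold higher in aged cells under LPS (0.90 ± 0.13, adjusted p = 1.19e-05) and Ccne2 1.91-fold higher (0.93 ± 0.16, adjusted p = 1.40e-04), neither with overlap. The difference of LPS responses was 0.61 ± 0.17 for Ccne1 (adjusted p = 0.0317) and 0.88 ± 0.22 for Ccne2 (adjusted p = 0.0170), positive in 5 of 5 batches for both. The interaction of Ccne1 was near its threshold: it was lost, with adjusted p of 0.0507 to 0.0641, without young untreated replicate 2, 3 or 5, aged untreated replicate 1 or 4, young LPS replicate 2, or aged LPS replicate 2 or 5. With the block it was 0.62 (adjusted p = 7.07e-04). Ccnd3 was 1.29-fold higher in aged cells under LPS (0.36 ± 0.05, adjusted p = 1.19e-05), with an interaction of 0.28 ± 0.07 (adjusted p = 0.0176) that was positive in 5 of 5 batches and was lost when no filter on low counts was used (adjusted p = 0.0659).

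**Figure D3:**
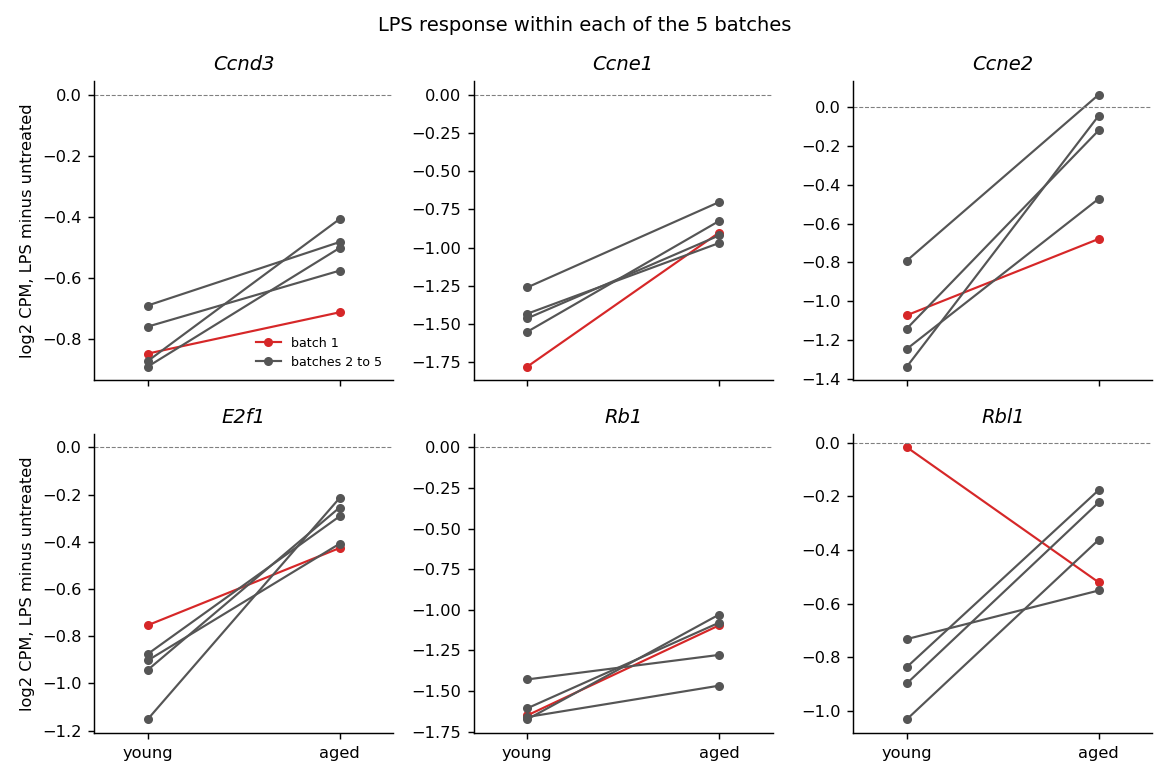
LPS response (log2 CPM of the LPS-treated minus the untreated culture) within each of the 5 batches, young on the left and aged on the right of each panel, with batch 1 in red and the dashed line at 0. Lines rose from young to aged in 5 of 5 batches for Ccnd3, Ccne1, Ccne2, E2f1 and Rb1, and in 4 of 5 for Rbl1, where batch 1 went the other way.

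Rb1 and Rbl1 were less clear. The interaction of Rb1 was 0.42 ± 0.14 and positive in 5 of 5 batches but did not pass (adjusted p = 0.0717). It passed in DESeq2 (adjusted p = 0.0482), with library sizes alone (0.0386) and without young LPS replicate 4 (0.0382) or aged LPS replicate 5 (0.0267). Under LPS itself Rb1 did not differ between ages beyond the replicate spread (0.12 ± 0.10, adjusted p = 0.431). The interaction of Rbl1 was 0.32 ± 0.15 (adjusted p = 0.231), with within-batch values between −0.50 in batch 1 and 0.68. Without young LPS replicate 1 it was 0.47 (adjusted p = 0.00313), and the difference between aged and young cells under LPS was 0.31 (adjusted p = 0.00153) in place of 0.16 ± 0.11 (adjusted p = 0.288).

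The remaining higher levels in aged LPS cells were small or near the threshold, apart from Ccnd2. Ccnd1 was 1.25-fold higher (0.32 ± 0.11, adjusted p = 0.0409) and Cdk4 1.10-fold higher (0.14 ± 0.05, adjusted p = 0.0429), each in 5 of 5 batches. The libraries of both genes overlapped between ages. Each call was lost on the removal of 7 of the 10 libraries in turn, all except young LPS replicates 4 and 5 and aged LPS replicate 1 for Ccnd1, and all except young LPS replicates 1 and 5 and aged LPS replicate 3 for Cdk4, with adjusted p up to 0.111 and 0.115. With the block adjusted p was 1.44e-04 and 0.00322. Neither gene had an interaction past the threshold (Ccnd1 0.14 ± 0.16, adjusted p = 0.709, and Cdk4 0.10 ± 0.07, adjusted p = 0.513), nor had Ccnd2 (−0.04 ± 0.10, adjusted p = 0.891).

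The genes that E2F factors are known to drive were examined as a list of 30 replication and S-phase genes. In young cells 29 of 30 fell with LPS and 0 rose (33.5% of all genes fell), with a median of −0.94, the exception being Mcm10 (0.01, adjusted p = 0.919). In aged cells 27 fell and 0 rose (26.9% of all genes fell), with a median of −0.45. Under LPS 26 of 30 were higher and 0 lower in aged than in young cells (median 0.46, with 14% of all genes higher), and the interaction passed for 22, all of them higher in aged cells (median 0.47, with 4.12% of all genes higher). By edgeR only Tk1 differed between untreated aged and young cells, being lower by 0.29 (adjusted p = 0.0428), and the median there was 0.00. This call ended with library sizes alone and without any 1 of 8 of the 10 untreated libraries (all except young replicate 4 and aged replicate 3). Tk1, thymidine kinase of the nucleotide salvage route, also had the largest fall of the list, from 66.9 to 79.2 CPM to 17.3 to 23.2 CPM in young (−1.89 ± 0.10, adjusted p = 1.60e-13) and from 54.6 to 69.0 CPM to 17.6 to 27.3 CPM in aged cells (−1.39 ± 0.10, adjusted p = 4.26e-11). Cdc6, which loads the replicative helicase, had the largest interaction, 1.05 ± 0.18 (adjusted p = 9.30e-04), with 15.3 to 23.1 CPM in young LPS and 32.8 to 44.1 CPM in aged LPS cultures. Ung, a uracil-DNA glycosylase, was higher in aged than in young cells under LPS (1.14 ± 0.20, adjusted p = 1.81e-04). The directions in this list were the same with library sizes alone, where 29 fell in young and 28 in aged cells.

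**Figure D4:**
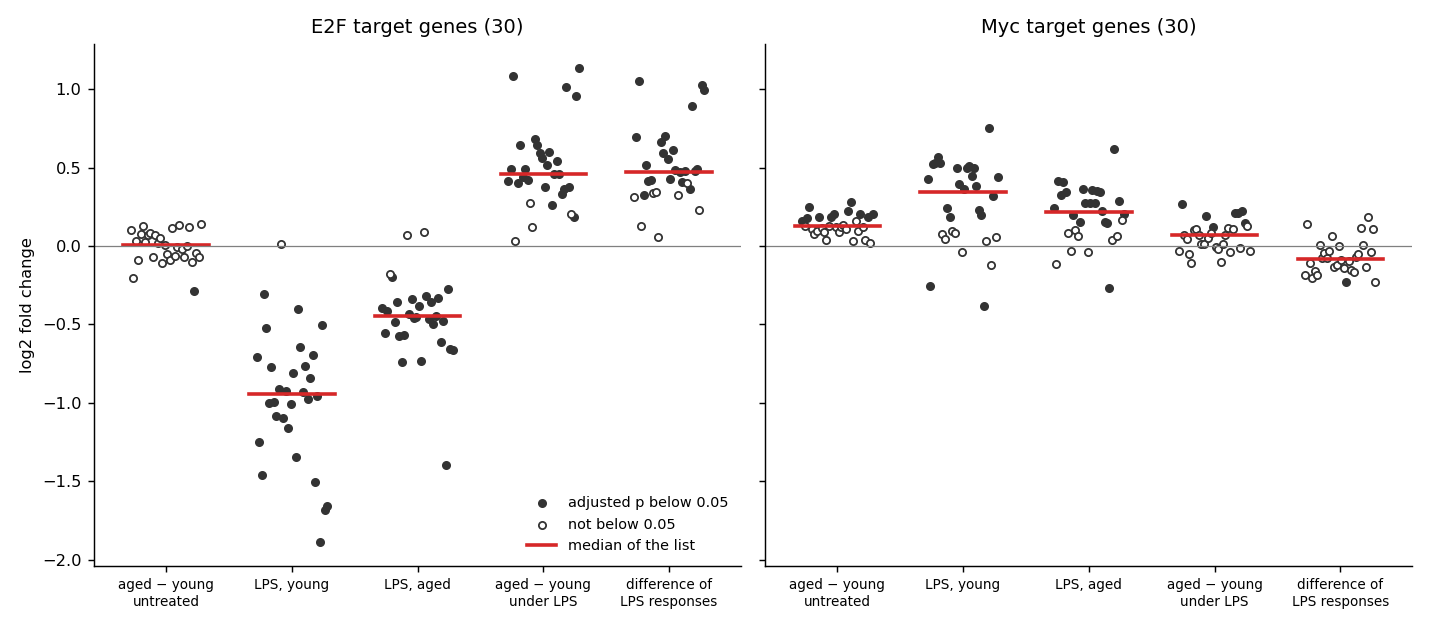
Log2 fold changes of 30 E2F target genes (left) and 30 Myc target genes (right) in the comparisons named on the horizontal axis, filled where the adjusted p is below 0.05, with the median of each list as a red line. The E2F targets lay lower in young than in aged cells after LPS, with medians of −0.94 and −0.45, and the Myc targets lay mostly above 0, with medians of 0.34 and 0.21.

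The partners of the 10 genes in the G1/S transition were a list of 36, of which 34 had a row and 32 were tested. In young cells 9 rose and 14 fell with LPS, and in aged cells 7 rose and 11 fell (medians −0.09 and −0.09), together 71.9% and 56.2% of the list where 64.6% and 54.4% of all genes passed. With library sizes alone the numbers were 5 and 22 in young and 5 and 19 in aged cells. Of the 8 tested E2F and DP factors, 5 fell at both ages (E2f2, E2f6, E2f8, Tfdp1 and Tfdp2) and 0 rose. Of all genes 33.5% fell in young and 26.9% in aged cells. Tfdp2, a dimerisation partner of E2F factors, fell 6.61-fold in young cells, from 22.4 to 26.9 CPM to 2.91 to 3.95 CPM (−2.73 ± 0.09, adjusted p = 1.24e-16), and 3.67-fold in aged cells (−1.88 ± 0.09, adjusted p = 5.47e-14), and it was also lower in untreated aged than young cells (−0.37 ± 0.08, adjusted p = 0.00290). E2f2, another activating E2F, had 14.1 to 22.1 CPM in young LPS and 27.3 to 39.3 CPM in aged LPS cultures. Its interaction of 1.14 ± 0.15 (adjusted p = 1.35e-04) was the largest of the list.

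Of the 6 kinases and their activators, Cdk2, the partner of the E-type cyclins, fell by 1.00 in young (adjusted p = 8.48e-12) and 0.51 in aged cells (adjusted p = 6.34e-07), with an interaction of 0.49 ± 0.09 (adjusted p = 0.00241). Cdk6, the relative of Cdk4, rose by 0.87 in young (adjusted p = 7.02e-12) and 0.77 in aged cells (adjusted p = 1.03e-10). Of the 6 pocket protein and DREAM complex genes, 4 fell in young cells, 2 fell in aged cells and 0 rose, where 33.5% and 26.9% of all genes fell. Rbl2, which encodes the pocket protein p130, fell by 2.45 in young (adjusted p = 5.19e-16) and 1.49 in aged cells (adjusted p = 1.52e-12), with an interaction of 0.96 ± 0.13 (adjusted p = 1.36e-04). Of the 6 ubiquitin ligase components, 4 rose and 2 fell in young cells and 3 rose and 1 fell in aged cells. Of all genes 31.2% rose and 33.5% fell in young cells, and 27.5% rose and 26.9% fell in aged cells. Fbxw7, which directs cyclin E and Myc to degradation, rose in young cells (0.31 ± 0.09, adjusted p = 0.00605) and had a value of 0.09 ± 0.10 in aged cells (adjusted p = 0.479).

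CDK inhibitors moved in both directions. Of the 6 tested, Cdkn1a and Cdkn2b rose and Cdkn1b and Cdkn2c fell with LPS in young cells, and in aged cells Cdkn2d rose as well. Of all genes 64.6% passed in young and 54.4% in aged cells. Cdkn1a, which encodes p21, rose from 24.2 to 29.4 CPM to 115 to 214 CPM in young (2.66 ± 0.15, 6.31-fold, adjusted p = 3.65e-13) and from 18.8 to 21.4 CPM to 57.2 to 89.1 CPM in aged cells (1.83 ± 0.15, 3.55-fold, adjusted p = 5.44e-10). The interaction was −0.83 ± 0.21 (adjusted p = 0.0161), and all 5 aged LPS libraries were below all 5 young LPS libraries. Cdkn2b, which encodes the CDK4 inhibitor p15, rose from 0.462 to 1.15 CPM to 4.64 to 11.4 CPM in young cells (3.19 ± 0.29, adjusted p = 1.84e-09) and less in aged cells (1.90 ± 0.31, adjusted p = 1.97e-05), but this difference of responses did not pass (adjusted p = 0.0988). Cdkn2a, the senescence-associated p16 and p19ARF locus, had log2 differences between −0.02 and 0.02 in all 5 contrasts (smallest adjusted p = 0.865). In untreated cells 0 of the 6 inhibitors differed between ages by edgeR, where 11.5% of all genes passed. Cdkn1a was −0.42 (adjusted p = 0.0812), and its libraries did not overlap between ages, where 10.4% of all genes had no overlap. By RT-qPCR, a different measure, the study reported significantly lower Cdkn1a and Cdkn2a in aged cells. Of the 32 tested G1/S partners 2 passed in this contrast, both lower, and 1 to 5 passed over the alternatives.

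The Myc network of dimerisation partners, antagonists and cofactors was a list of 20, of which 17 were tested. With LPS 5 rose and 8 fell in young cells, and 5 rose and 6 fell in aged cells, which is 76.5% and 64.7% of the list beside 64.6% and 54.4% of all genes, and with library sizes alone 5 rose and 11 fell at both ages. Max, the obligate partner of Myc, rose by 0.68 in young (adjusted p = 5.29e-13) and 0.35 in aged cells (adjusted p = 7.36e-08), with an interaction of −0.33 ± 0.05 (adjusted p = 7.42e-04). Pim1, a kinase that cooperates with Myc, rose 7.79-fold in young (2.96 ± 0.11, adjusted p = 7.02e-16) and 6.53-fold in aged cells (2.71 ± 0.11, adjusted p = 6.73e-15). The MXD family, which competes with Myc for Max, was divided. Mxd1 rose 3.32-fold in young (1.73 ± 0.27, adjusted p = 7.17e-06) and 2.22-fold in aged cells (1.15 ± 0.29, adjusted p = 0.00186). The rise in aged cells rests in part on aged LPS replicate 3, at 34.6 CPM, with 11.5 to 13.2 CPM in the others. Mxd3, Mxd4 and Mxi1 fell at both ages, Mxd4 9.64-fold in young (−3.27 ± 0.20, adjusted p = 2.21e-12) and 5.76-fold in aged cells (−2.52 ± 0.22, adjusted p = 1.73e-09). Mxd4 was also lower in untreated aged cells, at 4.94 to 10.5 CPM against 12.0 to 17.7 CPM in young ones (−1.17 ± 0.16, adjusted p = 5.56e-05), and Mxi1 too (−0.19 ± 0.06, adjusted p = 0.0428), whereas Ruvbl1 was higher (0.18 ± 0.06, adjusted p = 0.0451). In untreated cells 3 of the 17 passed, where 11.5% of all genes did. With the block 5 passed. With no filter on low counts, or without any 1 of 7 of the 10 libraries (young replicate 1, 2 or 3 or aged replicate 1, 2, 4 or 5), 1 passed. With library sizes alone the call of Mxi1 was lost (adjusted p = 0.0644).

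A list of 30 genes that Myc is known to drive, most of them in ribosome biogenesis and biosynthesis, was examined. In young cells 20 rose and 2 fell with LPS (median 0.34), where 31.2% of all genes rose and 33.5% fell. In aged cells 20 rose and 1 fell (median 0.21), where 27.5% of all genes rose and 26.9% fell. With library sizes alone 15 rose and 9 fell in young and 12 rose and 4 fell in aged cells. Rrs1, a ribosome assembly factor, rose from 141 to 147 CPM to 226 to 266 CPM in young (0.75 ± 0.05, adjusted p = 2.21e-12) and from 146 to 163 CPM to 231 to 254 CPM in aged cells (0.62 ± 0.05, adjusted p = 1.08e-10). Ppat, of purine synthesis, fell by 0.38 (adjusted p = 2.13e-07) and 0.27 (adjusted p = 4.12e-05). Untreated aged cells had higher levels of 11 of the 30 and lower levels of 0, where 3.71% of all genes were higher and 7.81% lower, and all 30 fold changes were positive, with a median of 0.12. Odc1, the first enzyme of polyamine synthesis, was the largest of these (0.28 ± 0.07, adjusted p = 0.0166). With the block 17 of 30 passed there, and 7 without young untreated replicate 2 or aged untreated replicate 2 or 5 and 5 without young untreated replicate 3, while the value of Myc itself was −0.23 ± 0.13 and did not pass. Under LPS 7 of 30 were higher in aged cells, where 14% of all genes were. Among them Cad, of pyrimidine synthesis, was higher by 0.27 ± 0.06 (adjusted p = 9.97e-04). With library sizes alone 16 of the 30 were higher.

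The genes whose profile over the 20 libraries was nearest to that of a member were sought for the 3 members with the largest SD of log2 CPM, by the root mean square difference of log2 CPM after each gene's own mean was removed. For Myc these were Gm16181 (0.15), Sema4d (0.16) and Ptk2b (0.16). For Rb1 they were Man2a2 (0.13), Pgap1 (0.14) and Rassf2 (0.15). For Ccne1 they were Dna2 (0.16), Rrm2 (0.18) and Cxcl14 (0.21), of which Dna2 and Rrm2 act in DNA replication and nucleotide supply.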

How the data were processed

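RNA-Seq was performed on 20 BV-2 cultures, 5 per group, that the labels place in 5 batches. Libraries were prepared from poly(A) RNA with a stranded Illumina kit. Per the labels and methods, the authors aligned reads to GRCm38 with STAR (2.6.1d) and deposited raw read counts per Ensembl gene from featureCounts (1.5.1). Settings for strand, multiple mapping and overlapping genes are not given in the sources used here, so genes that overlap others are uncertain. Symbols, positions and exon lengths came from a GENCODE annotation of GRCm38, which matched 55227 of 55487 identifiers. No sample column was left unused.

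Counts of all 20 libraries were fitted with edgeR 4.0.16 (limma 3.58.1, R 4.3.3), with TMM normalization, filterByExpr (12799 genes kept), the quasi-likelihood F-test and the group as the only factor. Benjamini-Hochberg adjustment ran over all 12799 genes, and an adjusted p below 0.05 counted as a call. Fold changes are log2 values and their SE is the fold change divided by the square root of F. Log2 CPM used a prior count of 2. Levels between genes were compared as CPM per kilobase of merged exons. Chi-square per degree of freedom between replicates was 2.42 to 26.9, above counting noise in every pair, so no library was treated as a duplicate. P-values measure the spread between these 20 libraries, whose replicates the labels distinguish by batch. A list was described by its counts and median, with no set test.

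Batch numbers recur in all groups and so pair the cultures by label. After group means were removed, same-numbered cultures correlated across genes by 0.146 on average over 30 pairs (−0.214 to 0.394). Between untreated and LPS cultures of the same age the values were 0.122 to 0.394, and the same-numbered culture was always the nearest. Between ages they were −0.214 to 0.275, and the same-numbered culture was often not the nearest. Pairing by number was thus weaker between ages than within an age. Alternatives were the batch as a replicate block, DESeq2 1.42.0 with and without it, other scalings and filters, a threshold of 0.01, only the groups compared, and each library left out. The 10 genes and the lists were chosen with earlier results of these data known. All 10 genes were named, with the called gene of largest fold change per list, direction and contrast, and the 3 nearest profiles for the 3 most variable members. Mcm10, Cdkn2a, the G1/S partners outside that rule and the overlapping genes were named after their values were seen. Python 3.11.15 with pandas 2.3.3, numpy 2.4.6 and matplotlib 3.10.9 drew the figures.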

Additional observations from a re-analysis of the deposited data

Results flagged for a closer look

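In the groups of 5 libraries, 184 were examined over 46 named genes for a library whose gap to the nearest other exceeded 0.71 of the group's range of log2 CPM (Dixon's limit). Chance alone flags about 1 in 20 such groups, and 13 values were flagged. Among the 10 genes these were Ccnd1 in young untreated replicate 1 (110 CPM, the others 150 to 163) and Rbl1 in young LPS replicate 1 (65.9 CPM, the others 39.1 to 44.6). Among the lists they were Cdc6 in young LPS replicate 5 (23.1 CPM, others 15.3 to 17.0), Mxd1 in aged LPS replicate 3 (34.6 CPM, others 11.5 to 13.2), Mxi1 in young LPS replicate 2 (49.7 CPM, others 43.2 to 44.8), Nop56 in aged untreated replicate 4 (394 CPM, others 359 to 368) and aged LPS replicate 1 (404 CPM, others 448 to 467), and Ppat in aged untreated replicate 2 (173 CPM, others 163 to 164). They also included Cdk2 in aged LPS replicate 3 (49.4 CPM, others 43.1 to 43.7), Fbxw7 in aged untreated replicate 5 (12.8 CPM, others 15.5 to 16.2), Mcm10 in young LPS replicate 1 (149 CPM, others 93.0 to 100.3), Rbl2 in young LPS replicate 1 (9.78 CPM, others 6.93 to 7.45) and Rrm2 in young LPS replicate 5 (64.9 CPM, others 49.2 to 51.8).

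The LPS responses of aged and young cells differed, by the interaction term of the edgeR fit, for 18 of these 46 genes, where 6.39% of all tested genes passed. Some of the 46 were named for the largest called value of a list in this same contrast, and others after their values were seen. The count of 18 therefore follows in part from that choice. The difference (aged minus young, log2) was 0.28 for Ccnd3, 0.61 for Ccne1, 0.88 for Ccne2 and 0.60 for E2f1, with the adjusted p given with each gene above. It was 1.05 for Cdc6, 0.49 for Tk1 (adjusted p = 0.0346) 0.99 for Ung (adjusted p = 0.0284) and 0.89 for Rrm2 (adjusted p = 8.87e-04) among E2F targets, and 1.14 for E2f2, 0.85 for Tfdp2 (adjusted p = 5.79e-04), 0.78 for E2f8 (adjusted p = 0.00247), 0.96 for Rbl2, 0.49 for Cdk2, 0.63 for Cdkn2c (adjusted p = 0.0111) and −0.83 for Cdkn1a among the G1/S partners. In the Myc lists it was −0.33 for Max, 0.54 for Mxi1 (adjusted p = 8.96e-04) and −0.23 for Nop56 (adjusted p = 0.0282). The call of Nop56 was the only one of the 30 Myc targets and was lost with library sizes alone (−0.17, adjusted p = 0.107).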

How the results depend on the processing

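The number of members called between untreated aged and young cells was 2, and it became 1 with library sizes alone, 1 at a threshold of 0.01, 4 with the replicate block, 4 in DESeq2 with the block and 1 to 2 when single libraries were left out, the calls that changed being Rb1, Ccnd1 and Ccne1. The number for the difference of LPS responses was 4, and it became 1 at a threshold of 0.01 (E2f1). Over the alternatives 7 to 9 members were called for LPS in young cells, 6 to 8 for LPS in aged cells, 5 to 7 for aged against young cells under LPS and 1 to 5 for the interaction. The direction turned for Ccnd2 (−0.053) and Cdk4 (−0.21) in the LPS response of young cells with library sizes alone. DESeq2's size factors ended the calls of Ccnd1 (adjusted p = 0.0510) and Cdk4 (adjusted p = 0.0682) between ages under LPS, and DESeq2 (adjusted p = 0.0564) and no filter (adjusted p = 0.0674) that of Cdk4. Calls of E2F targets for the interaction ranged from 13 to 24, and of Myc targets from 2 to 18 between untreated cells, from 3 to 16 between ages under LPS and from 0 to 7 for the interaction. The replicate block changed no call of the members other than those given in the text. The causes of these changes were not tested. Myc rested on 40 to 175 reads per library and Ccne2 on 86 to 514.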
